A study of Mus musculus with 2 samples.

Results

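The genes described here are 10 genes best known from the visceral endoderm. They are the secreted proteins Afp, Ttr, Apoa1, Apob, Apoe and Rbp4, the uptake proteins Amn, Cubn and Lrp2, and Cited1. They were taken as the gene probes, on both arrays, whose RefSeq accession belongs to one of these symbols, and 12 probes for the 10 genes were found among 39411 probes and 20823 named genes. The rule itself uses no measured value. Cited1 encodes a nuclear co-regulator of transcription that is neither secreted nor an uptake protein, and is therefore kept apart from the other 9 genes.

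Total RNA was compared between mouse ES cells that depended on either of a pair of actin-related subunits of the BAF chromatin remodeling complex. All cells were Baf53a conditional-knockout (cKO) cells of a single E14 ES clone, in which CRISPR/Cas9 had mutated the endogenous Baf53a gene and a Cas9-resistant Baf53a cDNA was kept under tetracycline (Tet) repression. Baf53a-expressing cells received a pCAGIP-Myc vector for Baf53a, the form that ES cells use, and Baf53b-expressing cells received the same vector for Baf53b, the form known from neurons. Both were kept for 6 days in medium containing Tet at 1 μg/mL and LIF, the cytokine that maintains undifferentiated ES cells. Each condition was measured on 1 array with 1 RNA, so no difference below has a replicate check or a test, and every comparison is between these 2 RNA preparations, not between conditions. Because whole cultures were measured, fewer cells of a type and less RNA per cell cannot be told apart.

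The visceral endoderm is the epithelium that covers the early mouse embryo and arises from the primitive endoderm. Before a placenta and a liver function, its cells take up maternal proteins and lipids by endocytosis, and secrete plasma proteins such as α-fetoprotein and the apolipoproteins. Uptake relies on the giant receptors megalin (Lrp2) and cubilin (Cubn) and on amnionless (Amn), which anchors cubilin in the membrane. ES cells kept with LIF are undifferentiated and normally contain few such cells.

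The processed signal is the fluorescence of a spot after background subtraction, and a probe counts as well above background where the software flagged 50% or more of its spots so. The lowest signal so flagged was 8.45 on the Baf53a array and 9.75 on the Baf53b array. Normalised log2 signals are relative to the 75th percentile of each array, and a difference is always Baf53b- minus Baf53a-expressing cells on that scale. Over all 16608 genes measured on both arrays, the median difference was -0.0032 and the 5th and 95th percentiles were -0.23 and 0.34. The probe for Baf53b (Actl6b) gave 3.40 in Baf53a-expressing cells, where it was not well above background, and 119, or at least 14.5-fold more, with Baf53b. The probe for Baf53a (Actl6a) gave 3806 and 3600. Which of the vector, resistant and mutated endogenous transcripts this probe reads was not determined.

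Of the 10 genes, 8 were measured on both arrays, against a background of 79.8% of all named genes, and Ttr and Apoa1 were well above background on neither. Of the 8, 6 were higher and 2 were lower in Baf53b-expressing cells, where 49.1% of all measured genes were higher. Their median difference was 0.19. None of the 8 reached a 2-fold difference, a size reached by 0.102% of all measured genes in the higher and 0.0903% in the lower direction. The higher genes were Lrp2, Apob, Afp, Cubn, Cited1 and Amn, in descending order of the difference, and the lower genes were Rbp4 and Apoe.

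**Figure D1:**
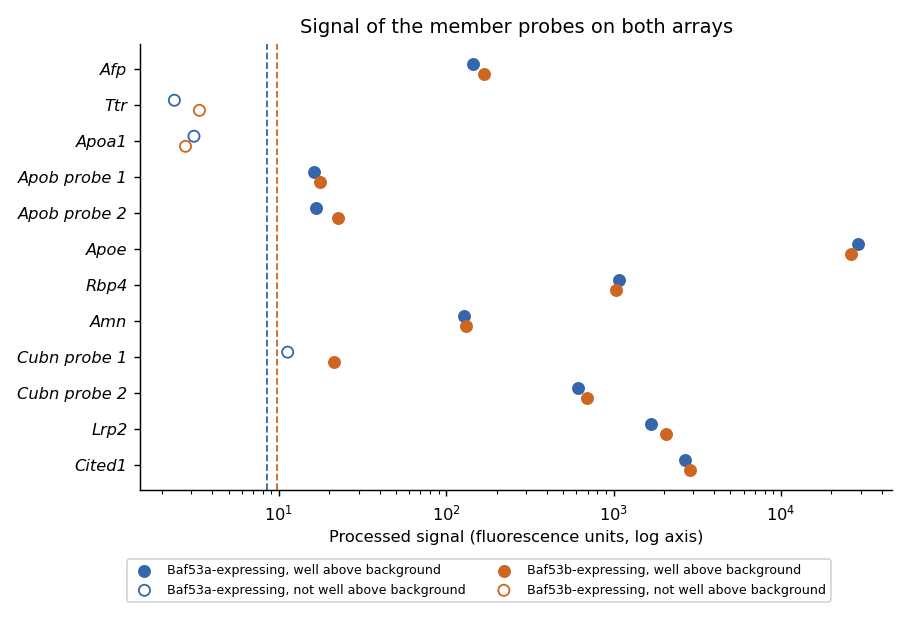
Processed signal (fluorescence units, log axis) of the 12 member probes in Baf53a-expressing (blue) and Baf53b-expressing (orange) cells, 1 array each. Filled points were well above background, open points were not, and dashed lines mark the lowest signal flagged as well above background on each array, 8.45 and 9.75. The flag is set spot by spot, and the dim Cubn probe of the Baf53a array was not flagged at 11.3. Levels of different probes cannot be set against each other.

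The stretches upstream of these genes were read for their base composition and for matches to short motifs. RefSeq promoter sequences of GRCm38.p6 were matched by symbol for 9 of the 10 genes, with the chromosome of Ttr left out of this step. For 5 of them the table holds a single start at the edge of the gene, and the 250 bases before it are printed 5′ to 3′ on the gene's strand. Afp and Apoa1 stand for a secreted protein that was detected and one that was not, and Amn, Cubn and Lrp2 are the whole uptake machinery of the list. Capitals mark 3 motifs of endoderm and liver factors and of the core promoter, picked with the sequences in view. Sites of GATA factors were read as AGATAA or AGATAG, or either of these with T as its first letter. Sites of FOXA factors were read as TGTTTAC or with G as the sixth letter, and the TATA box as TATAAA. The GATA and FOXA motifs were searched on both strands and TATAAA on the strand of the gene only. Matches were counted anywhere in the 250 bases, so a TATAAA need not be the TATA box of the start used.
Afp, chr5:90490464-90490713, forward strand: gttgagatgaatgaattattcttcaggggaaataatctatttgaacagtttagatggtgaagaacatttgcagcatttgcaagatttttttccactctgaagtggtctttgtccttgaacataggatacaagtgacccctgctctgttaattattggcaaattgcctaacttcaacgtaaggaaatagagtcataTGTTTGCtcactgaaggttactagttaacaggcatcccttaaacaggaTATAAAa
Apoa1, chr9:46228380-46228629, forward strand: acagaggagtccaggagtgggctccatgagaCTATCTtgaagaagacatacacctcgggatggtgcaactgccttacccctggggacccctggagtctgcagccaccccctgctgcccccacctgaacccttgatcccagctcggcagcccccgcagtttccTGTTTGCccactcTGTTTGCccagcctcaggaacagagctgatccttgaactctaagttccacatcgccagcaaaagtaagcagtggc
Amn, chr12:111270846-111271095, forward strand: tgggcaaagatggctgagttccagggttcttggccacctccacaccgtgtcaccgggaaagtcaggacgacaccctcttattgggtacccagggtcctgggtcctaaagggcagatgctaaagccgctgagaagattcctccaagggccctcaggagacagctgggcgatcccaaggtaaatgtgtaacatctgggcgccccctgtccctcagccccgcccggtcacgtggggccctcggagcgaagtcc
Cubn, chr2:13491877-13492126, reverse strand: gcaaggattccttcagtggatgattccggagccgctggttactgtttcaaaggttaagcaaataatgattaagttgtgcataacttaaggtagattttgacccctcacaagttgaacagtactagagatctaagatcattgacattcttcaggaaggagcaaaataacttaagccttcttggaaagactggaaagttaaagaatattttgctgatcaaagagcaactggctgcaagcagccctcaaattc
Lrp2, chr2:69586030-69586279, reverse strand: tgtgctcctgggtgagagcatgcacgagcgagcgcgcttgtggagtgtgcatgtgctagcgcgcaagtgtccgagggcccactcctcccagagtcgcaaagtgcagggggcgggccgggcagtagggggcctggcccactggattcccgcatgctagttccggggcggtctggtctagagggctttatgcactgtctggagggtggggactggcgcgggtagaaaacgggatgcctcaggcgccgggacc

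The Afp stretch held TGTTTGC with its first base 55 bases before the start and TATAAA at 7. The Apoa1 stretch held TGTTTGC at 88 and again at 75, and the reverse complement of AGATAG at 219. The Amn, Cubn and Lrp2 stretches held none of the 3 motifs. Of the members not printed, Apob held a FOXA word and TATAAA. Apoe, Rbp4 and Cited1 have several starts, which differed. Apoe held a GATA word and TATAAA at different starts, Rbp4 TATAAA and a FOXA word at different starts, and Cited1 TATAAA at some. Among 32851 promoters of the table, 26.5% held a GATA word, 7.3% a FOXA word and 7.6% TATAAA. The uptake genes differed among themselves in base composition. Lrp2 had 66.4% G and C with 18 CpG and Amn 61.2% with 11 CpG, whereas Cubn had 39.6% with 2 CpG, against a median of 52.4% and 6.0 CpG over all promoters. Afp had 36.0% with 1 CpG and Apoa1 58.0% with 4 CpG. A match of letters is a description of the sequence and not a binding site, and no binding was measured.

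Afp encodes α-fetoprotein, the major plasma protein of the yolk sac and fetal liver. Its probe was printed on 10 spots of each array. In Baf53a-expressing cells the spots ran from 133 over a median of 147 to 157, and in Baf53b-expressing cells from 157 over 170 to 184. After scaling, all 10 spots of the Baf53b array lay above all 10 of the Baf53a array, the highest Baf53a spot being at -2.89 and the lowest Baf53b spot at -2.85 on the log2 scale. The mean level went from -3.00 ± 0.08 to -2.74 ± 0.06 (SD of 10 spots), a difference of 0.26 or 1.20-fold. Spots of one array share 1 RNA, so the SD covers only the array itself. Probes of the same brightness, the second of 5 equal groups, differed between the arrays by a median of 0.05 with an SD of 0.21, so the Afp difference was 1 SD above their median.

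Apoe encodes apolipoprotein E, a ligand by which lipoproteins are taken up. It was also printed on 10 spots. They gave 28134 to 30265 with a median of 28951 in Baf53a-expressing cells, and 25433 to 27739 with a median of 25978 in Baf53b-expressing cells. After scaling, 9 of the 10 Baf53b spots lay below every Baf53a spot. The level went from 4.64 ± 0.03 to 4.54 ± 0.04 (SD of 10 spots), a difference of -0.11, or 1.08-fold lower. Among the brightest group of probes the median was -0.06 with an SD of 0.11, which put Apoe at -0.40 SD from it. The difference between the 2 arrays was thus larger than the spread of repeated spots for Afp and Apoe alike, but lay about 1 SD or less from the median of probes of like brightness.

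Apoa1, the main protein of high-density lipoprotein, was not well above background on any spot. It gave 2.12 to 6.96 on 9 spots of the Baf53a array, with 1 outlier spot left out, and 2.02 to 6.63 on 10 spots of the Baf53b array. The ranges overlapped almost completely. Ttr, the carrier of thyroxine and of retinol-binding protein, gave 2.37 and 3.35 on its only spot and was likewise not well above background. For both genes no fold can be given at this signal.

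**Figure D2:**
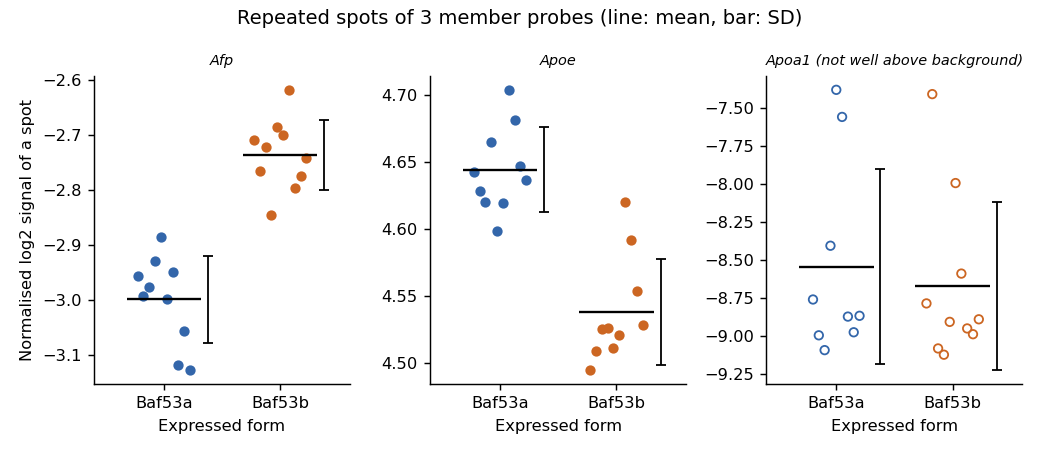
Normalised log2 signal of each spot of the Afp, Apoe and Apoa1 probes in Baf53a-expressing (blue) and Baf53b-expressing (orange) cells, with the mean as a line and the SD over spots as a bar. The vertical scales differ between panels. The Afp spots separate upward by 0.26, the Apoe spots lie lower by 0.11 with an overlap of 1 spot, and the open Apoa1 spots, none of them well above background, overlap.

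Apob, the structural protein of chylomicrons and very-low-density lipoproteins, has 2 probes of 1 spot each, both dim. One gave 16.2 in Baf53a- and 17.7 in Baf53b-expressing cells, a difference of 0.17 or 1.13-fold. The other gave 16.7 and 22.5, a difference of 0.47 or 1.39-fold. Both probes were higher in Baf53b-expressing cells, but by unequal amounts, and their mean difference was 0.32. The dimmest group of probes had a median of 0.10 and an SD of 0.32, so these values lay 0.23 and 1.16 SD above it. Rbp4, which carries retinol in plasma and has 1 spot, gave 1071 and 1029, and its difference of -0.02 was within 0.03 SD of the median of its brightness group.

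Lrp2, which encodes megalin and has 1 probe of 1 spot, gave 1687 on the Baf53a array and 2056 on the Baf53b array. The level went from 0.54 to 0.87, a difference of 0.33 or 1.25-fold. In its brightness group, the fourth of 5, the median was -0.02 and the SD 0.12, which placed Lrp2 2.80 SD above the median. On this measure it was the farthest of the 9 member probes measured on both arrays.

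Cubn, which encodes cubilin, has 2 probes of 1 spot each. The brighter gave 610 and 693, with levels of -0.93 and -0.70, a difference of 0.23 or 1.17-fold and 1.35 SD above the median of its group. The dimmer gave 11.3 in Baf53a-expressing cells, where it was not well above background, and 21.3 in Baf53b-expressing cells, where it was. The plain ratio of these scaled signals was 1.95-fold on the dim probe, against 1.17-fold on the bright one. It rests on 1 unflagged spot and is not a lower bound. Of all probes, 2.18% were likewise seen in Baf53b-expressing cells only. Amn, also read on 1 spot, gave 128 and 132, a difference of 0.08 or 1.06-fold, 0.14 SD above the median of its group. All 3 uptake genes were higher, with a median difference of 0.23, and the 4 measured secreted genes were split into 2 higher and 2 lower with a median of 0.12. With the stricter filter, which drops Apob, 1 of 3 secreted genes was higher with a median of -0.02. Whether the 2 sets of genes differ cannot be tested with 1 array per condition.

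Cited1, a co-regulator that binds the acetyltransferases CBP and p300 and was described in the visceral endoderm, gave 2662 and 2884 on 1 spot. The difference was 0.16 or 1.12-fold, 1.43 SD above the median of its brightness group. Its relatives on the arrays, Cited2 and Cited4, had differences of -0.05 and -0.10. The 2 probes of Cited2 disagreed in sign, at 0.04 and -0.14.

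The scanner software gives each signal an error of its own, which combined to between 0.20 and 0.32 for the difference of a probe. For Afp and Apoe, printed on 10 spots, the mean error of a spot was used, with no reduction for averaging. They were thus read against the same kind of error as probes of 1 spot. The differences of Lrp2 and Afp, the brighter probe of Cubn and 1 of the 2 probes of Apob exceeded it. Rbp4, Amn, Apoe, Cited1 and the other probe of Apob lay within it. How many of all measured probes exceed their own error was not counted, so this is no result particular to the members. This error covers the measurement of 1 hybridised RNA and not the spread between cultures.

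**Figure D3:**
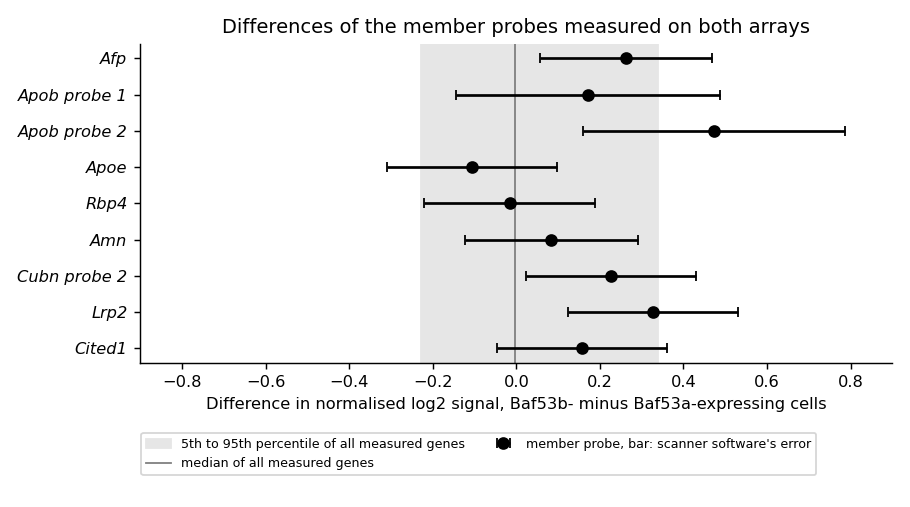
Difference in normalised log2 signal between Baf53b- and Baf53a-expressing cells for the 9 member probes measured on both arrays, with the scanner software's error per spot as bars. The grey band holds the genes between the 5th and 95th percentile of all 16608 measured genes (-0.23 to 0.34) and the line is their median. All member probes but 1 of Apob, at 0.47, lie within the band.

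The gene next to each of the 8 measured members on either side, by gene order, was read in the same way. Apoe lies between Apoc1 and Tomm40, which had differences of -0.13 and -0.11 beside its own of -0.11. All of these have bright signals, and the brightest group of probes had a median of -0.06 of its own. Apoc1 encodes another apolipoprotein and Tomm40 a pore of the mitochondrial import machinery. Farther along, Apoc4 had -0.15 on the side of Apoc1, and Nectin2, Bcam and Cblc had -0.03, -0.01 and 0.05 on the side of Tomm40. Afp lies between Alb and Afm, genes of the same albumin family, and neither of these was well above background on both arrays. Apob lies between Klhl29, with 0.29, and Ldah, with 0.04. Amn lies between Traf3, with 0.06, and Cdc42bpb, with 0.05. Cubn lies between Rsu1, with -0.05, and Trdmt1, with -0.12, and the genes beyond them include some of the sign of Cubn, such as St8sia6 with 0.29. Cited1 lies between Rps4x, with -0.03, and Hdac8, with -0.07. Of the genes next to Lrp2, Bbs5 had 0.03 and Dhrs9 was not measured on both arrays. Of those next to Rbp4, Ffar4 had 0.62 at dim signals of 15.8 and 23.5, and Pde6c was not measured on both arrays. The adjacent genes thus had either sign, and whether they differed together with the members was not tested.

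Of 11 other apolipoprotein genes, 10 had a named probe (Apoc2 had none) and 7 were measured, with Apoa4, Apoc3 and Apoh on neither array. In this list 2 genes were higher and 5 lower with a median of -0.13. The direction depends on the filter on dim probes, since 6 of 10 were higher with a median of 0.08 without it and 5 of 10 with -0.0075 under the weaker flag, and normexp gave -0.03. The values ran from -0.26 for Apod, a lipocalin that carries small lipids, to 0.16 for Clu, an extracellular chaperone. All 10 genes for lipoprotein assembly and cholesterol esterification were measured. Of these, 4 were higher and 6 lower with a median of -0.03, from -0.11 for Soat2 to 0.25 for Lcat, which esterify cholesterol inside cells and in plasma. No measured gene of these lists or of those that follow reached 2-fold.

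Of 15 other uptake receptors, ligands and adaptors, 14 were measured, all but Cblif, the intrinsic factor that carries cobalamin to cubilin. Here 10 were higher and 4 lower with a median of 0.05. With median centring 6 of the 14 were higher with a median of -0.0024, and with the brightest probe of each gene 8 of the 14 with 0.02. The highest was Dab2, the adaptor that links megalin to clathrin, with signals of 108 and 138 and a difference of 0.40. The lowest was Lrp8, a receptor for reelin and apolipoprotein E, with dim signals of 18.9 and 16.3 and a difference of -0.17. Of 10 genes of retinol handling, 9 were measured and Lrat was not. In this list 7 were higher and 2 lower with a median of 0.13, from -0.06 for Crabp2, which brings retinoic acid to its receptors, to 0.24 for Rbp2, a cellular retinol carrier. The Rbp2 signals were dim, 14.4 and 16.6.

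Of 13 further plasma proteins that liver and visceral endoderm can make, 12 were measured and Alb was not. Of these, 8 were higher and 4 lower with a median of 0.06, from -0.27 for Hpx, which binds heme, to 0.43 for Fgg, a chain of fibrinogen. The Fgg signals were dim, 18.3 and 24.0. The sign of this median depends on the scaling, at -0.02 with cyclic loess and with quantile normalization (6 of 12 higher in each), and at -0.01 over the 3 genes left by the stricter filter.

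The label of these genes was set against markers of the cells that a culture could hold. Beside every such list stand the shares over all genes, 79.8% measured and 49.1% of these higher. All 8 transcription factors of the primitive and visceral endoderm were measured, with 7 higher and 1 lower, a median of 0.21 and a summed linear level, relative to the 75th percentile, of 2.35 on the Baf53a array and 2.73 on the Baf53b array. The highest was Foxa2, a pioneer factor of endoderm, with signals of 267 and 321 and a difference of 0.31. Of 6 genes of the anterior visceral endoderm, 5 were measured and Cer1 was not. They were split into 2 higher and 3 lower with a median of -0.02, from -0.11 for Hhex to 0.27 for Dkk1, and summed to 4.49 and 4.42. This median changed sign with cyclic loess (0.01) and quantile normalization (0.0026). The visceral endoderm factors were thus present on both arrays beside 8 of the members. Of the secreted products, 4 of the 6 members and 12 of the 13 further plasma proteins were measured. Ttr, Apoa1 and Alb were well above background on neither array.

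The parietal endoderm, the other derivative of the primitive endoderm, lays down a thick basement membrane. All 10 genes listed as its markers were measured, against 79.8% of all named genes. All 10 were higher in Baf53b-expressing cells (9 with median centring), where 49.1% of all measured genes were higher. Their median was 0.29, from 0.01 for Sparc to 0.65 for Thbd, the surface anticoagulant thrombomodulin. Whether visceral endoderm or other epithelial cells of the cultures also made these transcripts was not determined. The Thbd signals were dim, 19.1 and 29.0, as in the group of probes with an SD of 0.32. The summed level was 96.8 on the Baf53a and 113.57 on the Baf53b array, and is carried by bright probes such as those of Krt18, Sparc and Lama1, so it describes those probes more than the list. Of 10 ES cell markers, all were measured, with 2 higher and 8 lower, a median of -0.08 and a range from -0.15 for Esrrb to 0.07 for Sox2. Most are bright, and the brightest group of probes had a median of -0.06 of its own. They summed to 340.87 and 327.54. With quantile normalization and cyclic loess the median was -0.04 and 4 of the 10 were higher, and with median centring it was -0.13 and 1 was higher. These values stand beside those of the members, and their part in the members' differences was not tested.

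**Figure D4:**
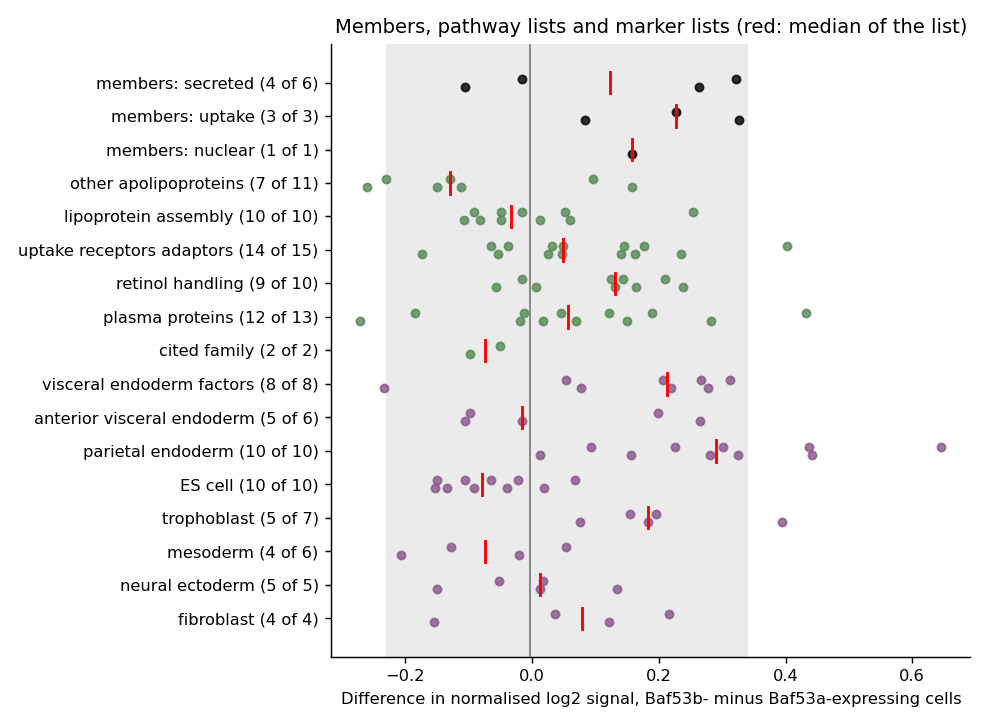
Difference in normalised log2 signal between Baf53b- and Baf53a-expressing cells for each measured gene (point) of the members (black), pathway lists (green) and marker lists (purple), with the number measured of all genes in the list and the median in red. The grey band is the 5th to 95th percentile of all measured genes and the grey line their median. With the scaling shown, the median is 0.29 for the parietal endoderm list and -0.13 for the other apolipoproteins.

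The members' values were recomputed under 10 other ways of processing. The number of members higher in Baf53b-expressing cells ran from 5 to 7, the median from 0.14 to 0.21, and none of the members was 2-fold apart under any of them. Lrp2 kept a difference between 0.28 and 0.36, and Afp between 0.21 and 0.26. Each has 1 probe, so the changes of filter, flag and probe choice could not move these values. The authors' value table only rescales the same signals. Apoe stayed lower, between -0.16 and -0.04. Rbp4 changed sign with normexp background correction, to 0.01. Apob ranged from 0.13 to 0.47 and was dropped by the stricter filter. Cubn reached 0.59 when its dim probe, below the flag on the Baf53a array, was averaged in.

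**Figure D5:**
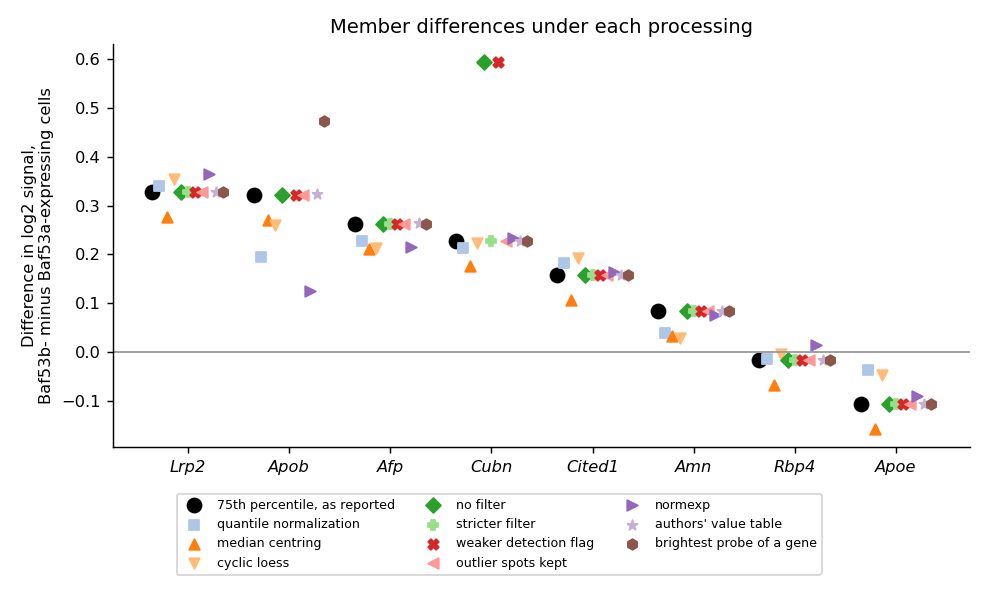
Difference in log2 signal between Baf53b- and Baf53a-expressing cells for the 8 members measured on both arrays (Apob has no value with the stricter filter), as reported (large black points) and under the other processings (small symbols). Lrp2, Apob, Afp, Cubn, Cited1 and Amn stay above 0 in all of them, Apoe stays below 0, and Rbp4 crosses it.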

How the data were processed

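The authors hybridised Cy3-labelled cRNA to Agilent one-colour whole mouse genome arrays and extracted the images with Feature Extraction 11.0.1.1. They deposited the processed signal intensity of each spot, background-subtracted and spatially detrended, with detection flags and an error, on a design annotated on mm9. Their deposited value table holds a ratio per probe, the processed signal divided by 1 number per array within 0.1%. There were 43020 gene spots per array and no saturated spot, and 75.2% and 76.4% of the probes were well above background.

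Outlier spots (173 and 143) were left out, log2 intensities were averaged per probe, and each array was set to 0 at its 75th percentile (1161 and 1128). A gene is the mean of its probes measured on both arrays. A probe seen on 1 array only was given a bound against the lowest signal well above background or its own signal, whichever was higher. Where its own signal was used, as for the dim Cubn probe, the value is a plain ratio and not a bound. Gene symbols and gene order came from a RefSeq table of GRCm38.p6, matched by accession. The lists and members were chosen with earlier results of these data known. Named were every member, the highest and lowest measured gene of each list (1 of them is not reported here) and the targeted genes; neighbours in gene order (all adjacent genes, and a few farther ones), undetected list genes and genes with no probe were named after their values were seen. Calculations used Python 3.11.15, pandas 2.3.3 and limma 3.58.1 in R 4.3.3. On a simulated array pair of 29247 probes, 200 of 200 changed by 2.0 (log2) were found, with 0 false calls. The planted changes were far above the 2-fold threshold, and the spot noise was set equal at every brightness, unlike that of the arrays. The simulation thus checks the calculation only and says nothing about differences as small as those of the members. The alternatives were quantile normalization, median centring, cyclic loess, no filter, a stricter filter on dim probes, a weaker detection flag, outlier spots kept, normexp (offset 50) on the median signal, the authors' value table and the brightest probe of a gene.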

Additional observations from a re-analysis of the deposited data

How the results depend on the processing

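The number of members measured ran from 7 with a stricter filter on dim probes to 10 without one. The number higher ran from 5 to 7, within 1.5 times the reported count under every alternative. The difference of Rbp4 turned to 0.01 under normexp. Over all measured genes, 17 were at least 2-fold higher and 15 lower. These counts became 13 and 24 with quantile normalization, 16 and 20 with median centring, 15 and 21 with cyclic loess, 344 and 182 without the filter, 226 and 110 with the weaker flag, and 0 and 0 with the stricter filter and with normexp. The share of genes higher went from 49.1% to 35.6% with median centring, which moved the median of all genes to -0.05, and to 58.1% with normexp. Without the filter, Ttr had a difference of 0.54 and Apoa1 of -0.13, both from signals at background. Signals near the lowest flagged value limit Apob, Ttr, Apoa1 and the dim Cubn probe. No paired analysis was possible because each condition has 1 array, and no array could be left out for the same reason.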

Other observations

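Markers of 4 further cell types were read beside the members, with lists drawn up in the same way. Of 7 trophoblast genes, 5 were measured (Elf5 and Tpbpa were on neither array) and all 5 were higher in Baf53b-expressing cells, under each scaling too, with a median difference of 0.18. They ran from 0.08 for Gcm1, whose probes disagreed, to 0.39 for Krt7, a keratin of simple epithelia, and their summed level was 10.9 in Baf53a- and 11.7 in Baf53b-expressing cells. Of 6 mesoderm and blood genes, 4 were measured (Mixl1 and Hba-x were on neither array), with 1 higher and 3 lower and a median of -0.07. They ran from -0.21 for Mesp1 to 0.05 for Kdr, whose 2 probes disagreed at 0.29 and -0.18. The median was 0.01 under normexp, and only Kdr was left by the stricter filter. With the brightest probe of each gene, 0 of the 4 were higher with a median of -0.15.

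All 5 neural ectoderm genes were measured, with 3 higher and 2 lower and a median of 0.01, whose sign changed with quantile normalization, cyclic loess, median centring, no filter, the stricter filter and the brightest probe of each gene. They ran from -0.15 for Tubb3, a neuronal tubulin, to 0.13 for Neurog2, a proneural factor with dim signals of 15.7 and 16.8. All 4 fibroblast genes were measured, with 3 higher and 1 lower and a median of 0.08, from -0.15 for Thy1 to 0.22 for Col1a2. None of the genes of these lists was at least 2-fold apart, and the part of these cell types in the members' differences was not tested.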
